A study of Mus musculus with 6 samples.

Results

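The lower step of the CX3CR1 range in dermal macrophages is the subject here: CX3CR1int cells against CX3CR1low cells, sorted from mouse ear skin. These subsets account for 4 of the 6 samples of the series, chosen by their labels, 2 of CX3CR1int and 2 of CX3CR1low cells. The other 2 samples hold CX3CR1high cells, which are set beside them. All cells came from C57Bl/6 mice aged 2 weeks with the genotype Cx3cr1+/gfp, in which a copy of Cx3cr1 is replaced by the gene for green fluorescent protein, so that controls without the reporter are not part of the comparison. Each sample pooled the cells of 4 mice, and the replicates 1 and 2 of a subset were taken from 2 independent litters. RNA was amplified by a whole-transcriptome method, labelled and hybridised to Affymetrix arrays. Values are log2 signals, so that a difference of 1 is a 2-fold difference, and they are given in the order replicate 1, replicate 2.

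Macrophages of the dermis are phagocytes that clear debris, take up iron and lipids, and sense microbes. They include long-lived cells seeded before birth and cells that derive from monocytes entering the skin from blood. CX3CR1 is the receptor of the chemokine fractalkine. It is carried by many blood monocytes and, at varying levels, by tissue macrophages, and the fluorescent reporter makes its promoter activity visible in a cell sorter.

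Across all genes the samples were close to each other, with correlations of 0.960 to 0.978 between any 2 of the 6, and genes are not independent replicates. The CX3CR1low replicates correlated at 0.974 and the CX3CR1int replicates at 0.9763. Between CX3CR1low and CX3CR1int samples the correlations were 0.9689 to 0.9776, so that the subsets were about as alike as their replicates. Medians of the arrays lay between 4.84 and 4.94. The replicates differed in sex composition in every subset. The X-inactivation transcript Xist read 7.39, 7.61 and 7.97 in replicate 1 of the CX3CR1low, CX3CR1int and CX3CR1high cells and 11.24, 10.99 and 11.39 in replicate 2, and the Y-linked Eif2s3y ran the other way. By the plan of the comparison the replicate number was a term of the model, and Xist itself differed by -0.02 between CX3CR1int and CX3CR1low cells. Macrophage markers were well above the dim limit in all samples. Their mean over 19 tested genes of core macrophage identity was 10.56 and 10.44 in CX3CR1low cells and 10.38 and 10.59 in CX3CR1int cells. Of 16 markers of T, NK and innate lymphoid cells measured, 5 (Cd3g, Cd8a, Gzma, Gzmb and Ncr1) were below the level of 4.335 used as that limit. The other 11 were tested, among them Il7r at 8.08 and 8.91 in CX3CR1low and 8.97 and 8.61 in CX3CR1int cells, with 7 higher, 4 lower and a median difference of 0.12 (0 at an unadjusted p below 0.05).

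Between CX3CR1int and CX3CR1low cells, 0 of 15529 genes tested (0%) passed the test at an adjusted p below 0.05 (limma, Benjamini-Hochberg). The gene nearest to the threshold was Ddx5, an RNA helicase gene, with an adjusted p of 0.0503 and 3.28-fold lower signal in CX3CR1int cells. At an unadjusted p below 0.05, 413 genes (2.66%) were higher and 531 (3.42%) lower in CX3CR1int cells, 6.08% together. A share of 0.05 of the genes is expected below that p where no gene differs. Both CX3CR1int samples lay at least 2-fold above, on average, and outside the range of both CX3CR1low samples for 15 genes (0.0966%). They lay below in the same way for 47 genes (0.303%). With a single sample in a subset there is less to overlap, and these counts were 43 and 150 without the CX3CR1low replicate 1, 59 and 55 without the CX3CR1low replicate 2, 34 and 88 without the CX3CR1int replicate 1, and 52 and 103 without the CX3CR1int replicate 2. The median difference over all genes was 0.01, and the median half-width of the 95% interval of a difference was 0.42. Differences well above that size did not pass after adjustment, and the genes named below did not pass the adjusted test unless this is stated.

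**Figure D1:**
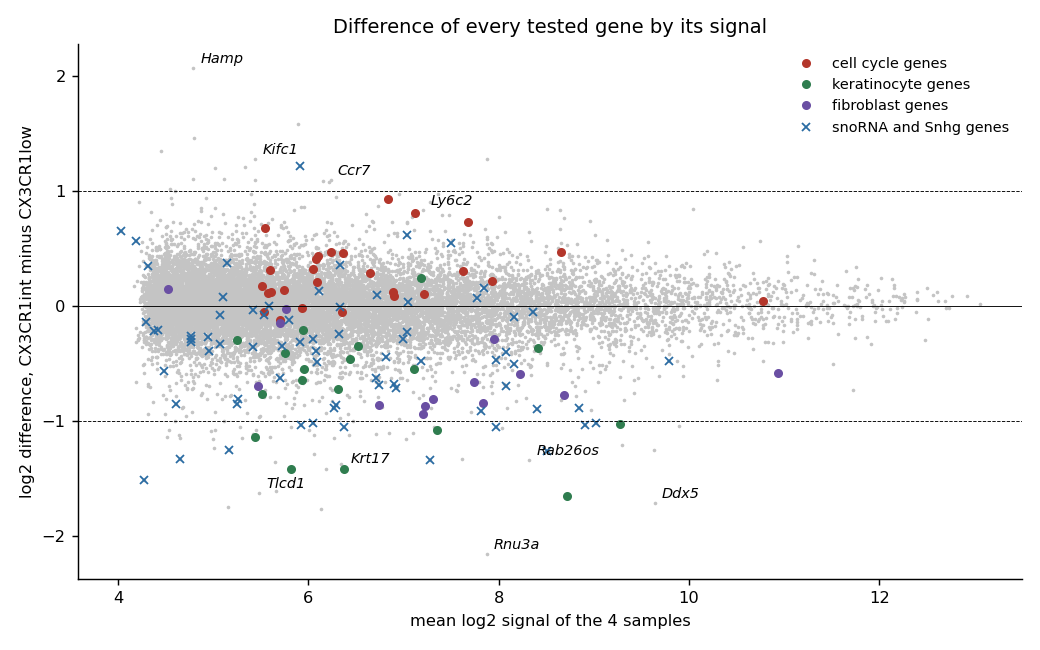
Each point is a tested gene, with the mean log2 signal of the 4 CX3CR1int and CX3CR1low samples on the horizontal axis and the log2 difference, CX3CR1int minus CX3CR1low, on the vertical axis; dashed lines mark 2-fold. Ddx5 lies at -1.72, cell cycle genes (red) lie mostly above 0, and keratinocyte (green), fibroblast (purple) and small nucleolar RNA and Snhg genes (crosses) lie mostly below.

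Ddx5 was the clearest difference of the lower step. It encodes a DEAD-box helicase that acts in splicing, transcription and the processing of microRNAs. In CX3CR1low cells its signal was 10.41 and 10.58, in CX3CR1int cells 8.72 and 8.84, and in CX3CR1high cells 10.12 and 9.81. The CX3CR1int samples were thus below all other samples. The difference from CX3CR1low was -1.72 ± 0.16 (SE, 95% interval -2.09 to -1.34) and that of CX3CR1high from CX3CR1int was 1.19 (adjusted p = 0.0309). In that upper step, CX3CR1high minus CX3CR1int, 47 of 15529 genes (0.303%) passed the same test.

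Rab26os, a non-coding RNA gene on the strand opposite to Rab26, had the same shape. It read 9.07 and 8.91 in CX3CR1low cells, 7.73 and 7.57 in CX3CR1int cells and 9.39 and 8.99 in CX3CR1high cells. Its difference of -1.34 ± 0.16 (SE) did not pass in the lower step (adjusted p = 0.121), whereas the difference of 1.54 in the upper step did (adjusted p = 0.0193). Whether its probes read only that strand was not tested. Ly6c2, a surface antigen of inflammatory monocytes, had the opposite shape. It read 6.48 and 7.11 in CX3CR1low cells, 7.35 and 7.90 in CX3CR1int cells and 3.36 and 4.92 in CX3CR1high cells, so that the CX3CR1int samples were highest. Its lower step was 0.83 ± 0.26 (SE, adjusted p = 0.657) and its upper step -3.49 (adjusted p = 0.00333). The CX3CR1high mean of Ly6c2 was below the dim limit, so that its upper step is given as at least 7.99-fold lower. With values below the limit set to it, an alternative chosen after the values were seen, the test of the steps for Ly6c2 passed at an adjusted p of 0.0102. Ly6c2 has a near-identical neighbour, Ly6c1, and their signals may not be separable.

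These were the 3 genes (0.0193% of 15529) for which the steps of the range differed, that is, for which CX3CR1int cells stood apart from the mean of the other subsets (adjusted p = 0.0308 for Ddx5, Rab26os and Ly6c2). The steps share the CX3CR1int samples, and this is the test of their difference. The calls rested on the full set of samples, the replicate block, the dim filter and a variance prior that follows signal intensity. The count was 0 without the block, 0 with no dim filter and 0 with no intensity trend. It remained 3 with a dim filter at the 50th percentile, the mean over a gene's probe sets, a robust variance prior, array weights, or values below the dim limit set to it.

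**Figure D2:**
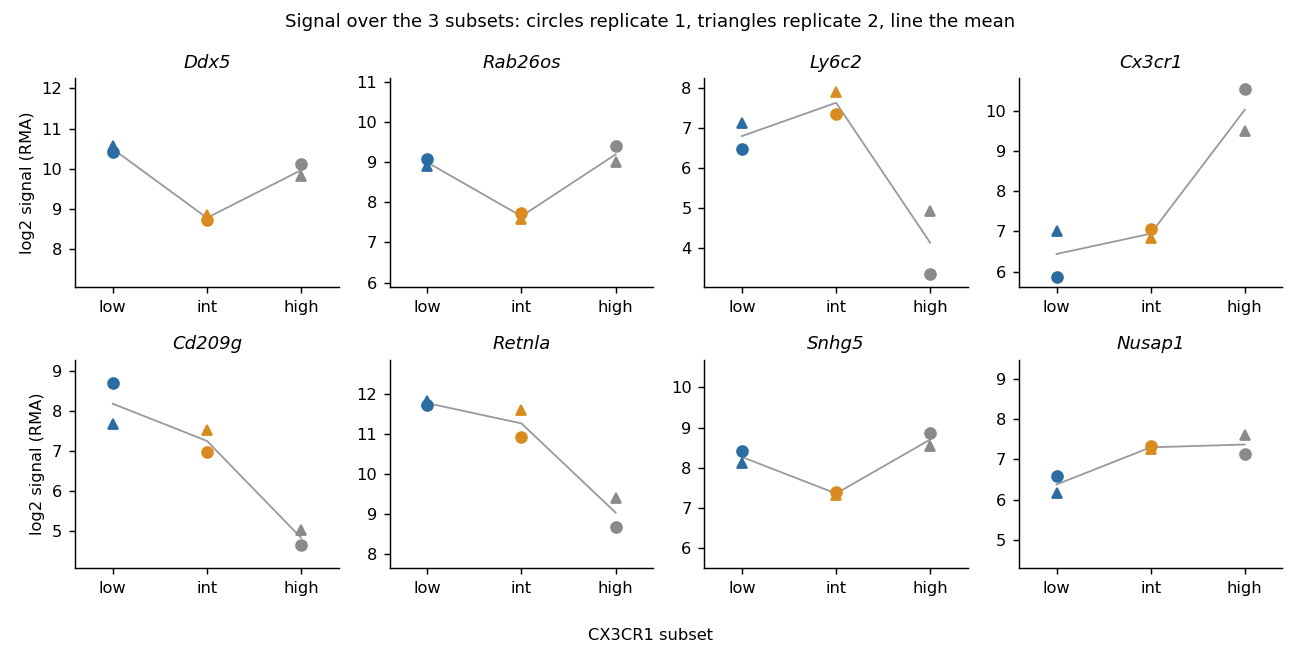
Log2 signal of 8 genes in the CX3CR1low, CX3CR1int and CX3CR1high samples, with circles for replicate 1, triangles for replicate 2 and a line through the subset means; each panel has its own range. Ddx5, Rab26os and Snhg5 were lowest in CX3CR1int cells, and Ly6c2 was highest there. For Cx3cr1, Retnla, Cd209g, Snhg5 and Nusap1 the test of the difference between steps did not pass.

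The gene that names the subsets overlapped between them over the lower step. Cx3cr1 read 5.87 and 7.01 in CX3CR1low cells and 7.05 and 6.84 in CX3CR1int cells, against 10.55 and 9.51 in CX3CR1high cells. The CX3CR1low and CX3CR1int samples overlapped, and the difference of 0.51 (95% interval -0.42 to 1.43, adjusted p = 0.936) turned to -0.38 without the CX3CR1low replicate 1. The fluorescence of the sorted cells was not analysed here.

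Cell cycle genes had the highest median difference of the 38 gene lists and the highest share of members with a higher signal in CX3CR1int cells. Of 27 tested, 23 were higher and 4 lower, 16 were higher without overlap between the samples against 0 lower without overlap, and 6 were higher at an unadjusted p below 0.05 against 0 lower. Over all genes tested 16.6% were higher and 14.8% lower without overlap, and 2.66% and 3.42% at that p. The median difference was 0.22, against 0.01 over all genes. The mean level of the list was 6.51 and 6.42 in CX3CR1low cells, 6.83 and 6.67 in CX3CR1int cells and 6.92 and 7.32 in CX3CR1high cells, so that both CX3CR1int samples lay above both CX3CR1low samples. The median was 0.12 without the CX3CR1low replicate 2 and 0.12 without the CX3CR1int replicate 1, and it was 0.36 and 0.38 without the other sample of each subset. No member passed the adjusted test.

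Nusap1, a spindle protein gene, read 6.58 and 6.17 in CX3CR1low and 7.33 and 7.27 in CX3CR1int cells, a difference of 0.93 ± 0.23 (SE). Top2a, the topoisomerase that untangles replicated DNA, read 7.22 and 7.41 against 8.31 and 7.77. Bub1, a kinase of the spindle checkpoint, differed by 0.68. Rrm2, a subunit of ribonucleotide reductase, differed by 0.81, although its second, dimmer probe set differed by 0.13 only. Mki67, the proliferation marker Ki-67, was looked at after its values were seen, and it read 8.46 and 8.39 against 9.22 and 8.56. These genes were thus higher in both CX3CR1int samples, more so in replicate 1 for Top2a and Mki67. Kifc1 and Depdc1a, which are outside the list, were among the largest differences of the lower step. Kifc1, a motor protein that focuses spindle poles, read 4.82 and 4.79 in CX3CR1low cells, 5.91 and 6.25 in CX3CR1int cells and 5.42 and 5.27 in CX3CR1high cells. Its difference was 1.28 ± 0.19 (SE, 2.42-fold, adjusted p = 0.201). Depdc1a, a gene active in mitosis, read 3.72 and 4.36 against 4.91 and 5.20, and since its CX3CR1low mean was dim the difference is at least 1.63-fold. H2bc12, a histone H2B gene, read 3.95 and 4.53 against 5.18 and 5.50, at least 1.88-fold.

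Many genes of mitosis carry a cell cycle homology region, TTTGAA, and CCAAT boxes near their start sites, and the promoters of Kifc1 and Depdc1a are shown because they carry both. Sequences are those of RefSeq for GRCm38.p6, from 250 bases before to 50 after the start, in the direction of transcription, with capitals for TTTGAA or its reverse TTCAAA and for CCAAT or its reverse ATTGG. That of Kifc1 lies at chr17:33890584-33890883 on the minus strand, with 1 and 3 matches, and that of Depdc1a at chr3:159495183-159495482 on the plus strand, with 1 and 1.
Kifc1: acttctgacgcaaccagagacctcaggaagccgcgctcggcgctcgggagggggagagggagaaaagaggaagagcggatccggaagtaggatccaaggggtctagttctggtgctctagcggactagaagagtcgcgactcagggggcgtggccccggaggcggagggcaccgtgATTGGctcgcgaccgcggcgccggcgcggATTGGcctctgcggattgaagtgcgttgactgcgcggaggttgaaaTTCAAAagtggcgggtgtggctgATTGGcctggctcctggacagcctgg
Depdc1a: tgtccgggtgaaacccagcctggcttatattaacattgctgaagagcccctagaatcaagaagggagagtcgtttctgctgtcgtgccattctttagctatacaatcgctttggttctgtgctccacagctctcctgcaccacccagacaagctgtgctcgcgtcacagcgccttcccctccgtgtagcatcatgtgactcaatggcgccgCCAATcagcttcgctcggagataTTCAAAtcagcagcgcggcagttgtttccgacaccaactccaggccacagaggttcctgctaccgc

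Nusap1 had neither motif in its window. The motifs were chosen after the values were seen. The region TTTGAA was found, on either strand, in 54.2% of the promoters of 24 cell cycle genes tested, in 12.6% of 14967 promoters of all genes tested and in 17.9% of all 32851 promoters of the table. The CCAAT box was in 79.2%, 36.5% and 37.4% of them, and both motifs were in 50%, 4.94% and 6.95%. A match is a description of the letters in the window, not of a bound factor.

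Among genes of migrating and antigen-presenting cells, Ccr7 had the largest difference without overlap. It encodes the receptor that guides dendritic cells to lymph nodes, and it read 5.74 and 5.64 in CX3CR1low cells, 6.83 and 6.73 in CX3CR1int cells and 7.29 and 6.72 in CX3CR1high cells. It was higher by 1.09 in both replicates (SE 0.20, 2.13-fold, adjusted p = 0.278). Flt3, the growth factor receptor of dendritic cell precursors, read 4.57 and 4.32 against 5.63 and 4.97, with 5.07 and 4.67 in CX3CR1high cells, between the other subsets on average. In contrast, Irf4 and Zbtb46, transcription factors of dendritic cells, were lower in CX3CR1int cells by 0.45 and 0.43 (unadjusted p = 0.0432 and 0.0466). Of 19 dendritic cell genes tested, 12 were higher and 7 lower, with a median of 0.07. Of 15 genes of MHC class II and antigen presentation, 12 were higher and 3 lower, with a median of 0.16, which was 0.06 without the CX3CR1low replicate 1, and 0 had an unadjusted p below 0.05. H2-Aa, a class II chain, differed by 0.15, which turned to -0.18 without the CX3CR1int replicate 2, and H2-Ab1 by 0.28.

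Monocyte genes showed a similar mixture. Plac8, abundant in Ly6C-positive monocytes, read 4.07 and 5.72 in CX3CR1low and 5.19 and 6.78 in CX3CR1int cells. The samples overlapped, but within each replicate CX3CR1int was higher by 1.12 and 1.06. Ccr2, the receptor that brings monocytes out of the marrow, read 5.56 and 7.15 against 6.99 and 7.05, and its difference of 0.67 was carried by the CX3CR1low replicate 1, without which it was -0.28. Of 19 monocyte genes 10 were higher and 9 lower with a median of 0.01, and without the CX3CR1low replicate 2 the median was 0.39.

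Hamp was among the genes with higher signal in CX3CR1int cells. It encodes hepcidin, the hormone that closes the iron exporter ferroportin, and macrophages can make it as well as liver. It read 2.18 and 5.34 in CX3CR1low cells, 5.38 and 6.27 in CX3CR1int cells and 3.58 and 5.91 in CX3CR1high cells. The CX3CR1low replicate 1 lay far below the dim limit. With that value set to the limit, CX3CR1int was higher by 1.05 in replicate 1 and by 0.93 in replicate 2, and the difference is at least 1.98-fold (adjusted p = 0.368 with the values as given). Slc11a1, the divalent metal transporter of phagosomes, read 9.30 and 8.90 in CX3CR1low cells, 8.53 and 8.35 in CX3CR1int cells and 9.44 and 8.97 in CX3CR1high cells. Slc40a1, which encodes ferroportin, differed by -0.39. Of 15 iron and heme genes tested, 5 were higher and 10 lower, with a median of -0.04.

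Of the other genes with the largest higher signal, several encode receptors of myeloid or lymphoid cells. Gpr141, an orphan receptor, read 3.42 and 4.14 in CX3CR1low against 4.82 and 5.43 in CX3CR1int cells, which is at least 1.73-fold. Klra2, a lectin receptor of the Ly49 family, read 4.03 and 4.22 against 4.59 and 5.43, and Mcemp1, a membrane protein of mast and myeloid cells, read 5.23 and 5.99 against 6.55 and 6.84. Xlr, Dbr1 and Ahcy, which encode a lymphocyte-regulated nuclear protein, the enzyme that opens intron lariats and S-adenosylhomocysteine hydrolase, were higher by 1.21, 0.98 and 0.94. Both probe sets of Ahcy were higher, the second by 0.81. For the 12 highest differences without overlap and with an unadjusted p below 0.05, small RNAs and clone names passed over, the adjusted p lay between 0.201 for Kifc1 and 0.598 for Mcemp1.

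**Figure D3:**
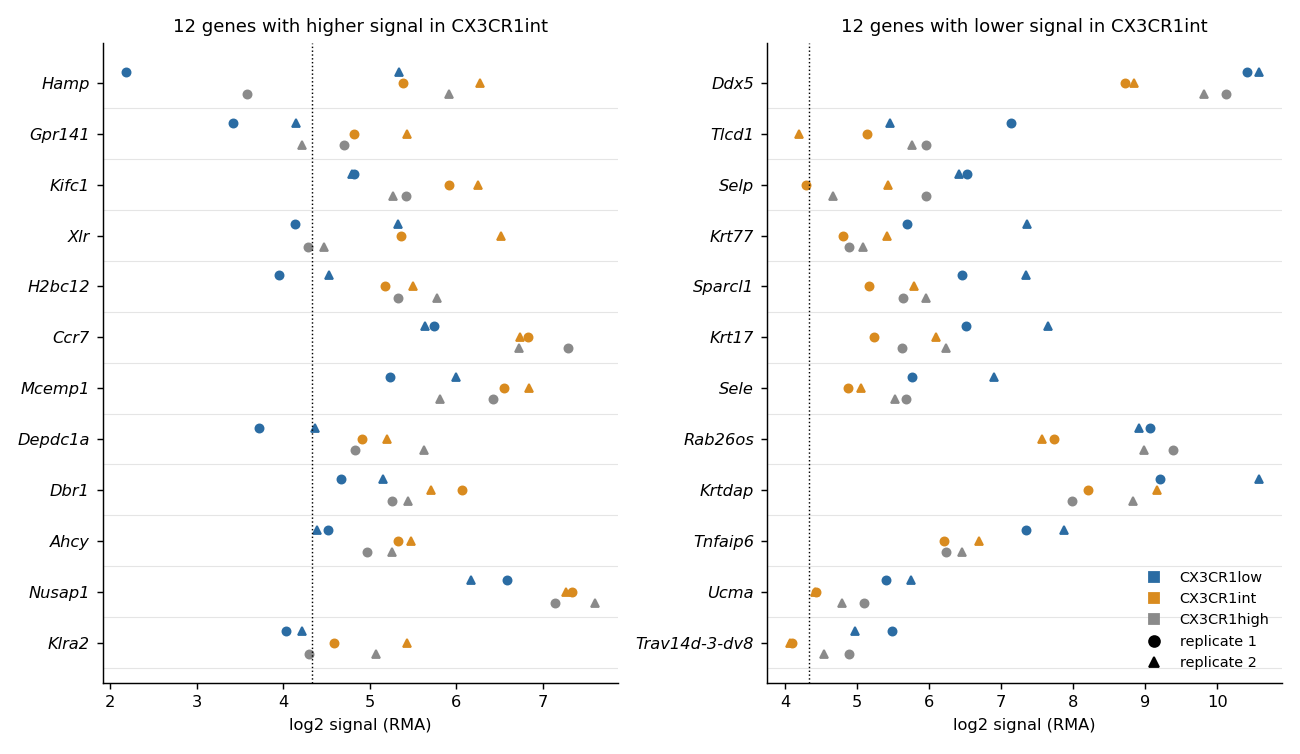
Log2 signal per sample of the 12 genes with the largest higher and the 12 with the largest lower signal in CX3CR1int among genes without overlap and with an unadjusted p below 0.05, with small RNAs, olfactory receptors and clone names passed over; colours are subsets, circles replicate 1, triangles replicate 2, and the dotted line is the dim limit of 4.335. CX3CR1int and CX3CR1low samples are apart by this choice, and CX3CR1high samples (grey) are on the CX3CR1low side for Ddx5 and Rab26os and on the CX3CR1int side for Ccr7, Nusap1, Krtdap and Tnfaip6.

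Markers of keratinocytes, fibroblasts and mast cells were mostly lower in CX3CR1int than in CX3CR1low cells, while those of other cells lay nearer to 0. Of the latter, pericyte and muscle genes had a median of -0.06, Schwann cell genes of -0.11, neutrophil genes of -0.04, melanocyte genes of -0.17 and lymphoid genes of 0.12. Of 18 keratinocyte genes tested 17 were lower, 12 of them at an unadjusted p below 0.05 (3.42% of all genes) and 11 without overlap (14.8% of all genes), with a median of -0.59. Krt17, a keratin of hair follicles and stressed epidermis, read 6.51 and 7.65 in CX3CR1low cells, 5.23 and 6.10 in CX3CR1int cells and 5.63 and 6.24 in CX3CR1high cells (difference -1.42 ± 0.20, SE, adjusted p = 0.193). Krt10, a keratin of the upper epidermis, read 9.42 and 10.15 against 8.67 and 8.85, and the desmosomal cadherin gene Dsg1a read 5.94 and 6.08 against 4.63 and 5.12. Krt77 was lower by 1.42, and Krtdap, a gene of differentiating epidermis outside the list, by 1.21. The mean level of the keratinocyte list was 6.64 and 7.32 in CX3CR1low cells, 6.08 and 6.46 in CX3CR1int cells and 6.16 and 6.31 in CX3CR1high cells. It was thus highest in the CX3CR1low replicate 2, without which the median was -0.46. Flg was dim.

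Fibroblast genes were lower for 13 of 14 tested, 9 at an unadjusted p below 0.05 (3.42% of all genes), with a median of -0.68. That median was -0.31 without the CX3CR1low replicate 2 and -0.95 without the CX3CR1low replicate 1. Col3a1, a fibrillar collagen, read 7.97 and 8.54 in CX3CR1low against 7.14 and 7.68 in CX3CR1int cells (-0.85 ± 0.17, SE), and Col1a1, Col6a1 and Mfap5, which encode collagens and a microfibril protein, were lower by 0.67, 0.81 and 0.70. A second probe set of Col6a1 was lower by 0.17. The list mean was 7.18 and 7.86 in CX3CR1low cells, 6.88 and 7.02 in CX3CR1int cells and 6.63 and 6.67 in CX3CR1high cells, so that the CX3CR1int samples lay between the other subsets.

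Mast cell genes were lower for 6 of 7 tested, with a median of -0.50. It was -0.31 without the CX3CR1int replicate 1, and -0.25 over all 12 measured members when the 5 dim ones were kept. Cpa3, the mast cell carboxypeptidase, read 7.80 and 7.08 in CX3CR1low cells, 6.41 and 6.51 in CX3CR1int cells and 3.82 and 4.32 in CX3CR1high cells. Cma1 and Mcpt4, which encode chymase-type proteases, were lower by 0.82 and 0.71. The list mean went from 6.22 and 5.99 to 5.61 and 5.66 and then to 4.77 and 4.73. Tpsab1, Ms4a2, Fcer1a, Mrgprb1 and Mrgprb2 were dim. In such bulk samples fewer cells of a type and less RNA per cell cannot be told apart, and the part of these cells in the other differences of the lower step was not tested.

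Selp and Sele, the selectins by which activated vessels capture leukocytes, were lower in CX3CR1int cells by 1.61 and 1.36. Selp read 6.52 and 6.42 against 4.29 and 5.43, and Sele 5.76 and 6.90 against 4.88 and 5.06. Endothelial markers as a list were lower for 11 of 13 tested, but 0 had an unadjusted p below 0.05, and Kdr, Tek, Emcn and Prox1 were dim. Their mean was 5.34 and 5.49 in CX3CR1low against 5.26 and 5.20 in CX3CR1int cells. Sparcl1, a matrix protein gene of vessels and stroma, was lower by 1.42 and Tnfaip6, a hyaluronan-binding protein induced in inflammation, by 1.16. Tnfaip6 read 7.34 and 7.87 in CX3CR1low cells, 6.20 and 6.69 in CX3CR1int cells and 6.24 and 6.45 in CX3CR1high cells. Ucma, known from cartilage, and the T-cell receptor segment Trav14d-3-dv8 had low signals, and were lower by 1.16 and by at least 1.86-fold. Other probe sets of Trav14d-3-dv8, which has near-identical copies, were lower by 0.28 and 0.40. Tlcd1, a membrane lipid regulator, was lower by 1.63 with its brighter probe set and differed by 0.05 with the other.

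**Figure D4:**
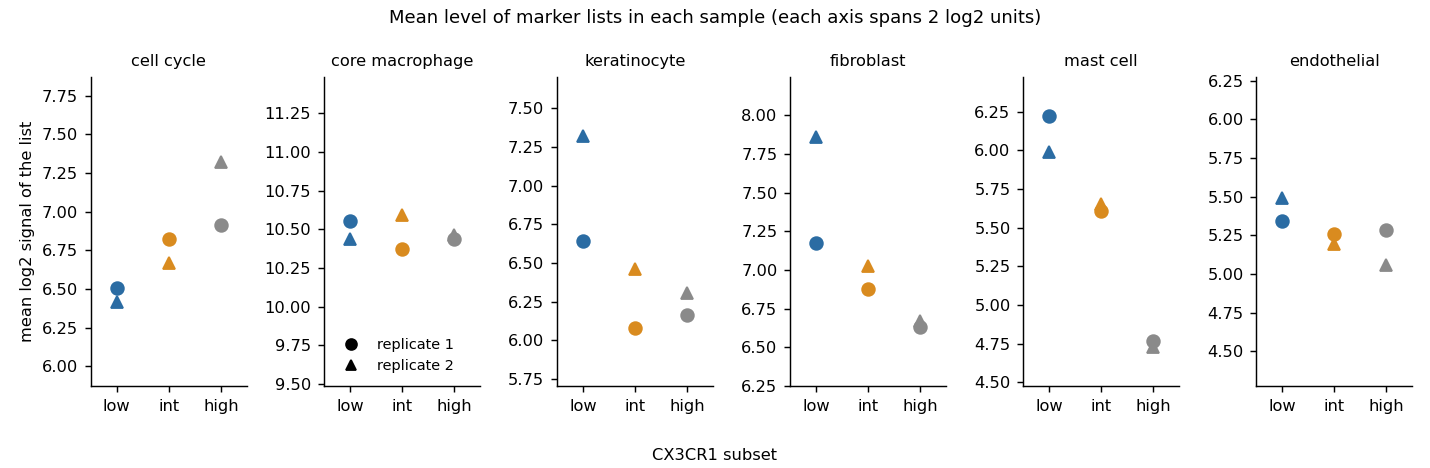
Mean log2 signal of 6 marker lists in each sample, by subset, with circles for replicate 1 and triangles for replicate 2; every vertical axis spans 2 log2 units. Cell cycle means were higher in CX3CR1int than in CX3CR1low samples, core macrophage means overlapped, and keratinocyte, fibroblast and mast cell means were lower.

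Genes of macrophage identity hardly differed over the lower step. Of 19 core genes 10 were higher and 9 lower, with a median of 0.01, a range of -0.48 to 0.25 and 0 at an unadjusted p below 0.05. Adgre1, a surface receptor that marks mouse macrophages, read 10.89 and 10.75 in CX3CR1low and 10.93 and 10.95 in CX3CR1int cells. Csf1r, the receptor of the macrophage growth factor, differed by -0.02 (95% interval -0.29 to 0.26) and the mannose receptor gene Mrc1 by 0.01 (-0.25 to 0.26). These intervals exclude differences as large as 1.5-fold for Csf1r and Mrc1 in this model. C1qa, a complement subunit, was low in the CX3CR1int replicate 1, at 9.96 against 10.77 to 11.01 in the other 3 samples.

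Genes of resident macrophages along vessels were lower in 16 of 24 cases, with a median of -0.09. By replicate the median was -0.355 in replicate 1 and 0.17 in replicate 2. Cd209g, a C-type lectin, read 8.69 and 7.66 in CX3CR1low cells, 6.97 and 7.53 in CX3CR1int cells and 4.66 and 5.02 in CX3CR1high cells (lower step -0.93 ± 0.34, SE, adjusted p = 0.731, and upper step -2.41, adjusted p = 0.0337). Its lower step was -1.72 in replicate 1 and -0.13 in replicate 2. Cd209d, a related lectin, read 10.05 and 9.35 against 8.97 and 9.73, so that the samples overlapped, and its difference of -0.35 turned to 0.23 without the CX3CR1low replicate 1 and to 0.17 without the CX3CR1int replicate 1. Retnla, which encodes a resistin-like protein that macrophages secrete in type 2 immunity, read 11.71 and 11.82 against 10.92 and 11.60, and then 8.68 and 9.40 in CX3CR1high cells. Its lower step was -0.51 ± 0.17 (SE, adjusted p = 0.665), and its upper step -2.22 passed (adjusted p = 0.00333). For Cd209g, Cd209d and Retnla the test of the difference between steps did not pass (adjusted p = 0.708, 0.233 and 0.233). Lyve1, a hyaluronan receptor, differed by 0.27, the folate receptor gene Folr2 by -0.14 and the lectin gene Clec10a by -0.19. Of 10 Langerhans cell genes tested, 4 were higher and 6 lower, 3 of the latter at an unadjusted p below 0.05 (3.42% of all genes). Their median was -0.215, or 0.09 in replicate 1 and -0.28 in replicate 2. Among them Cd207, the langerin gene, differed by -0.18. The signs of Folr2, Clec10a and Cd207 turned without the CX3CR1low replicate 1.

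Inflammatory mediators went both ways. Of 29 cytokine and chemokine genes 19 were higher and 10 lower, with a median of 0.06. Il1a read 9.61 and 9.47 in CX3CR1low cells, 9.94 and 10.01 in CX3CR1int cells and 10.68 and 10.66 in CX3CR1high cells, with no overlap between subsets. Il18, which encodes a cytokine activated through inflammasomes, differed by 0.46 and Ptgs2, the inducible cyclooxygenase gene, by 0.56. In contrast, Il6 was lower by 0.53 (unadjusted p = 0.0131). Of 18 genes of pattern recognition 14 were higher, with a median of 0.19, and the fungal sensor gene Clec7a had the largest difference, 0.80 (unadjusted p = 0.0481). Its samples overlapped, at 5.43 and 6.99 against 6.18 and 7.84.

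Interferon response genes were lower for 13 of 19, with a median of -0.21 and 4 lower at an unadjusted p below 0.05 (3.42% of all genes). Those were the antiviral effectors Oas2, Mx2 and Rsad2 and the signalling factor Stat2, lower by 0.59, 0.71, 0.54 and 0.56. Within the replicates Oas2 read 8.08 against 7.55 and 8.91 against 8.27, so that the replicates differed at least as much as the subsets. Without the CX3CR1int replicate 1 the median was -0.12. Immediate early genes, which are induced within minutes by tissue digestion as well as by stimulation, were lower for 19 of 24, with a median of -0.19, or -0.08 without the CX3CR1int replicate 1. Fos read 7.94 and 7.91 in CX3CR1low cells, 7.30 and 7.40 in CX3CR1int cells and 7.86 and 7.66 in CX3CR1high cells. Klf4, a transcription factor of monocytes and macrophages, read 10.29 and 10.11 against 9.60 and 9.75, and Egr1 differed by -0.51.

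The adhesion receptor genes of the smallest p were higher in CX3CR1int cells. Itgb5, a partner of the alpha v integrin in the uptake of dying cells, read 6.66 and 6.69 in CX3CR1low cells, 7.71 and 7.10 in CX3CR1int cells and 8.08 and 8.32 in CX3CR1high cells. Itgb7, the partner of Itga4 in homing to the gut, read 5.58 and 5.81 against 6.07 and 6.46, with 5.58 and 5.69 in CX3CR1high cells. Adgre4, a relative of Adgre1 found on monocytes, differed by 0.62. These were the 3 of 22 genes with an unadjusted p below 0.05, all higher (2.66% of all genes). Of the 22, 13 were higher in all, with a median of 0.07. That median was 0.055 in replicate 1 and -0.035 in replicate 2.

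Matrix and protease genes were lower for 18 of 23, with 6 lower and 2 higher at an unadjusted p below 0.05 (3.42% and 2.66% of all genes). Their median was -0.22, or -0.11 without the CX3CR1int replicate 1 and -0.14 without the CX3CR1low replicate 1. Mmp3, the stromelysin gene, and Sparc, a collagen chaperone gene, were lower by 0.76 and 0.52, and Timp3, a protease inhibitor, by 0.55. Fibroblasts, whose markers were lower in the same samples, also express these genes, and their part was not tested. Thbs1, which encodes thrombospondin, was higher by 0.85, at 8.63 and 10.61 against 10.19 and 10.74, with most of the difference in replicate 1. Genes of cholesterol and fatty acid synthesis were lower for 13 of 15, with a median of -0.26. With single samples left out it ranged from -0.40 without the CX3CR1low replicate 2 to -0.175 without the CX3CR1low replicate 1. Scd1, the desaturase of fatty acids, read 6.77 and 7.77 in CX3CR1low against 6.23 and 6.09 in CX3CR1int cells. Srebf2, the regulator of cholesterol synthesis, read 8.47 and 7.73 against 7.49 and 7.64. Of 21 respiratory chain genes 17 were higher, with a median over the list of 0.11, or 0 in replicate 1 and 0.28 in replicate 2. Cox7b, a subunit of cytochrome oxidase, differed by 0.37 with its brighter probe set and by -0.17 with the other.

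**Figure D5:**
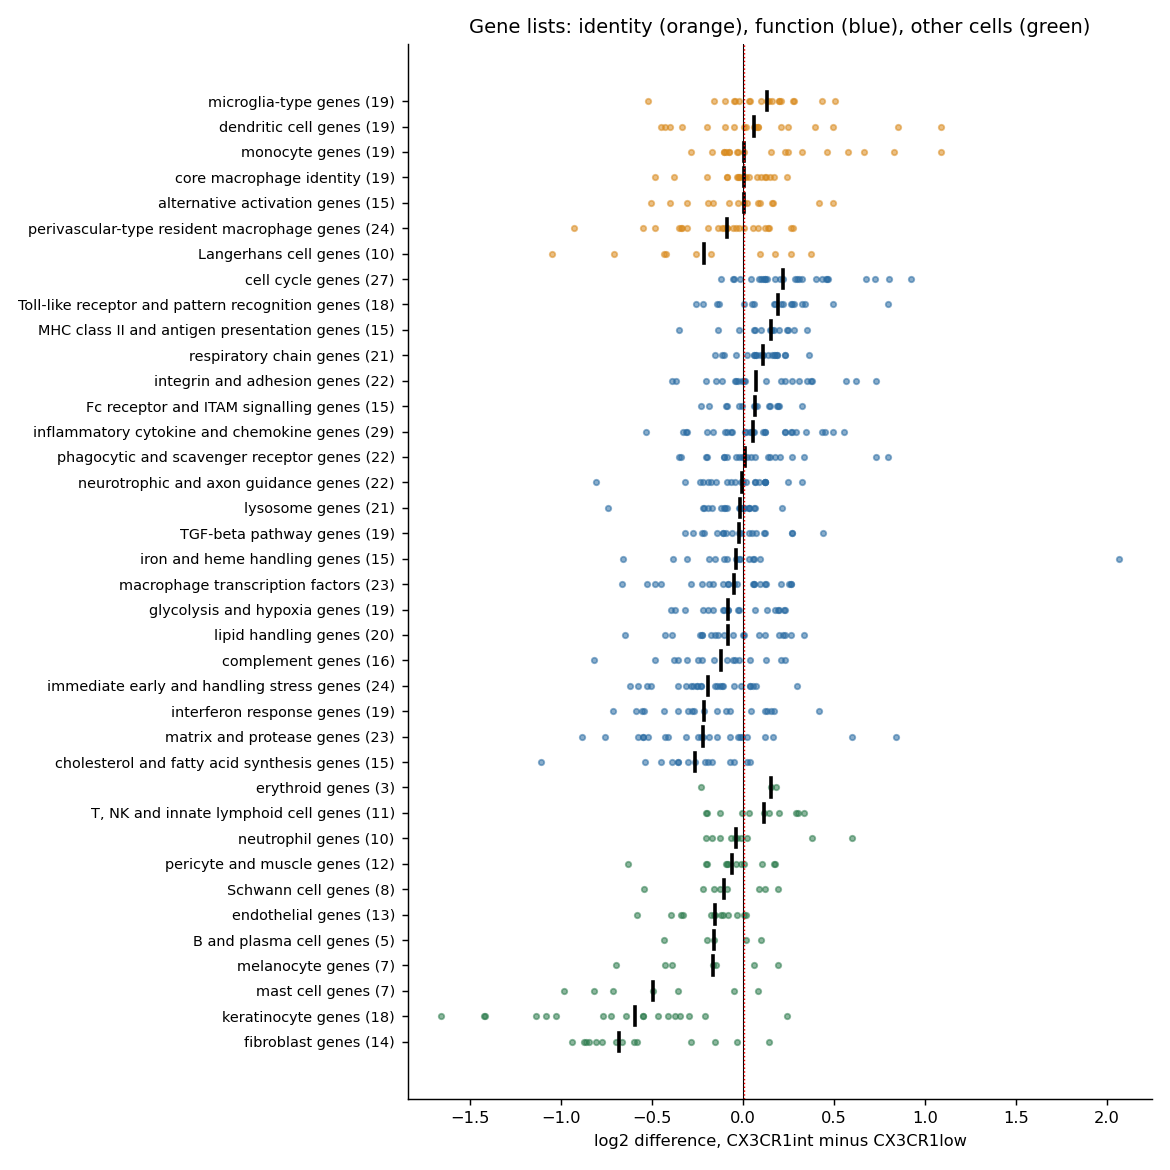
Log2 differences, CX3CR1int minus CX3CR1low, of the tested members (points) and their median (black bar) for 38 gene lists, with the number tested in brackets; the solid line is 0 and the dotted line the median of all genes, 0.01. The lowest medians are those of fibroblast (-0.68), keratinocyte (-0.59) and mast cell (-0.50) genes, and the highest is that of cell cycle genes (0.22).

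Small nucleolar RNAs and their host genes, a class looked at after the values were seen, were also mostly lower in CX3CR1int cells. Pseudogenes, looked at in the same way, were mostly higher. Of 85 tested, 66 were higher and 19 lower, with a median of 0.205. At an unadjusted p below 0.05, 15 of them were higher and 2 lower (2.66% and 3.42% of all genes). Small nucleolar RNAs guide the chemical modification of ribosomal RNA and are cut from introns of host transcripts, many of which are named Snhg. Of 14 Snhg genes tested, 12 were lower, 8 at an unadjusted p below 0.05 (3.42% of all genes) and 10 without overlap (14.8% of all genes), with a median of -0.49. The median of the upper step, which shares the CX3CR1int samples, was 0.44. Snhg5 read 8.41 and 8.13 in CX3CR1low cells, 7.40 and 7.32 in CX3CR1int cells and 8.87 and 8.54 in CX3CR1high cells (lower step -0.91 ± 0.17, SE, adjusted p = 0.283, and upper step 1.35, adjusted p = 0.0254). Snhg12 read 7.24 and 7.32, then 6.54 and 6.59, then 7.46 and 7.59. CX3CR1int samples were thus lowest for both, and the test of the difference between steps did not pass (adjusted p = 0.12 for Snhg5 and 0.233 for Snhg12).

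Of 60 small nucleolar RNA genes tested, 46 were lower and 14 higher. Of these, 18 and 3 had an unadjusted p below 0.05 (3.42% and 2.66% of all genes). Their median was -0.30, or -0.23 in replicate 1 and -0.565 in replicate 2. Snora33, lower by more in replicate 1, read 9.32 and 8.97 in CX3CR1low cells, 7.58 and 8.18 in CX3CR1int cells and 9.11 and 9.30 in CX3CR1high cells. Snord15a ran the other way, at 5.54 and 5.06 in CX3CR1low against 7.21 and 5.83 in CX3CR1int cells. Rnu3a, the U3 RNA that takes part in cutting the ribosomal RNA precursor, had the largest lower signal of all genes, at 9.32 and 8.59 against 7.25 and 6.34 (-2.16 ± 0.25, SE, adjusted p = 0.118), with 7.55 and 7.67 in CX3CR1high cells. U3 genes are near-identical copies of each other, so that this signal may be shared by several. Neat1, the long RNA that scaffolds paraspeckles, is outside these classes and read 10.14 and 10.70 against 9.70 and 9.06. Long non-coding RNAs as a class were not lower. Of 932 tested, 493 were higher and 438 lower, with a median of 0.02. The array reads small RNAs only as far as the amplification kept them or their precursors, which was not tested.

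Of 179 microRNA genes tested 105 were higher and 74 lower, with a median of 0.07, and 14 were higher and 18 lower at an unadjusted p below 0.05 (2.66% and 3.42% of all genes). The Mir17 cluster, known for promoting proliferation, was singled out after its values were seen. RefSeq lists 6 microRNA genes within 5 kb of Mir17, of which 3 were tested, all 3 lower in CX3CR1int cells. Their mature 5p microRNAs, which are given to show which share a seed (bases 2 to 8, in capitals), lie on the plus strand in GRCm38.p6 at chr14:115043684-115043706, chr14:115044183-115044205 and chr14:115043867-115043889.
mmu-miR-17-5p: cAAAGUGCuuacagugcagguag
mmu-miR-20a-5p: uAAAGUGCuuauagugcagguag
mmu-miR-18a-5p: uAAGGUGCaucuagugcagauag

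The first pair share the seed AAAGUGC, and miR-18a-5p has AAGGUGC. Mir17 read 6.71 and 7.35 in CX3CR1low cells, 6.06 and 5.26 in CX3CR1int cells and 7.13 and 6.95 in CX3CR1high cells, a difference of -1.37 ± 0.30 (SE, adjusted p = 0.412). Mir18 read 6.60 and 7.44, then 5.73 and 4.78, then 6.55 and 7.19. Mir20a read 5.59 and 4.81, then 3.69 and 4.46, and remained low in CX3CR1high cells at 4.33 and 3.58. In each case both CX3CR1int samples were below both CX3CR1low samples, as they were for 34 of the 179 microRNA genes and 14.8% of all genes. Outside the cluster, Mir221 and Mir146 were lower by 1.15 and 1.12 and Mir677 was 2-fold lower. Mir505 was higher by 1.08, and Mir669i, dim in CX3CR1low cells, by at least 1.69-fold. The probe sets stand for the microRNA gene and do not tell the mature microRNA from its precursor.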

How the data were processed

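The authors deposited normalised log2 values of Affymetrix arrays, with 2 decimals, and these entered without change. Their processing notes name RMA and version 1.4 of the Affymetrix Expression Console. The genome build behind the probe sets is not given in the sources used here. RNA was extracted from sorted cells and amplified as whole transcriptome before biotin labelling, per the labels' protocols, and the values stand for the amplified product. Of 34390 probe sets, 23521 carried 1 gene symbol, 1814 several and 9055 none. The brightest stood for each of the 1082 genes with more than 1. A mean signal under the 30th percentile, 4.335, counted as dim and took a gene out. Of 22180 genes 15529 were tested, and 15423 of these matched the RefSeq table of GRCm38.p6 by gene ID. Where the mean of the lower group was dim, the fold is a lower bound, with each of its arrays taken at that level or above. Value columns left unused numbered 0.

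The model, fitted with limma 3.58.1 in R 4.3.3, took all 6 samples, with 1 mean per subset, 3 in all, and the replicate number as a block. Its variance prior followed the signal intensity. Tests were two-sided, and p-values were adjusted by the Benjamini-Hochberg method across the 15529 genes. A gene was called at an adjusted p below 0.05, and 2 residual degrees of freedom were joined by 6.72 of the prior. The series' design text gives 2 independent litters per subset, and the replicate numbers come from the sample titles. Deviations of same-numbered samples from their subset means had correlations of 0.146 (low with int), 0.136 (low with high) and 0.178 (int with high) over the genes. With Xist and Y-linked genes removed they were 0.123, 0.113 and 0.158. These correlations describe the pairing, and the block was set by the plan of the comparison. The fit was tested on simulated data with known differences. In these, genes varied independently and no replicate effect was added, so that they do not show how the fit handles such effects.

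The comparison and the 38 gene lists were chosen with earlier results of these data known. Of 660 different listed genes 559 were tested, 45 were dim and 56 were not analysed here. Lists are described by counts and medians, with no test. Named genes were the 12 highest and 12 lowest differences with no overlap between the samples, an unadjusted p below 0.05 and the same direction within both replicate numbers, the 5 genes of the smallest p, from each list up to 4 chosen in the same way, and 15 genes always given that were measured, among them Cx3cr1. Clone names and symbols of small RNAs and olfactory receptors were passed over. The classes of non-coding RNA and the promoter motifs were chosen after the values were seen. Alternatives, 16 in all, changed the block, the samples, the dim filter, the handling of probe sets, the variance prior, the array weights or values below the dim limit, or left out each sample in turn. That on values below the dim limit, which set them to it, was chosen after seeing the data.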

Additional observations from a re-analysis of the deposited data

How the results depend on the processing

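The count of genes called between CX3CR1int and CX3CR1low cells, 0 in the model reported, was 1 without the replicate block, 1 with a dim filter at the 50th percentile, 1 with the mean over a gene's probe sets, 1 with a robust variance prior and 1 with values below the dim limit set to it (chosen after seeing the data). That gene was Ddx5 each time, at an adjusted p of 0.0426, 0.0295, 0.0411, 0.0476 and 0.0372 in turn, with the same difference of -1.72. It was 0 in the other alternatives, in the 4 samples alone (smallest adjusted p = 0.517) and with every sample left out in turn (0 to 0). The 3 genes whose steps differed were 0 without the replicate block, 0 with no dim filter, 0 with no intensity trend and 0 to 0 with single samples left out. At the 50th-percentile filter, which tests fewer genes, 271 were higher at an unadjusted p below 0.05 and 8 were at least 2-fold higher without overlap. With single samples left out, genes at an unadjusted p below 0.05 ranged from 270 to 516 higher and 345 to 531 lower, and those at least 2-fold apart without overlap from 15 to 59 higher and 47 to 150 lower. Of 95 named genes, 11 changed sign, in every case with a sample left out. With single samples left out, Cx3cr1 ranged from -0.38 to 1.388, Ccr2 from -0.28 to 1.61, Csf1r from -0.1625 to 0.1325, Folr2 from -0.425 to 0.155, Cd207 from -0.6325 to 0.2825, Clec10a from -0.4725 to 0.0925, Cd209d from -0.9275 to 0.2275, Adgre1 from -0.01 to 0.25, Mrc1 from -0.0575 to 0.0675, Xist from -0.24 to 0.21 and H2-Aa from -0.175 to 0.475. The sign turned without the CX3CR1low replicate 1 for Cx3cr1, Ccr2, Csf1r, Folr2, Cd207, Clec10a and Cd209d, without the CX3CR1low replicate 2 for Adgre1, Mrc1 and Xist, without the CX3CR1int replicate 1 for Mrc1 (-0.05), Csf1r (0.055), Folr2 (0.0775), Cd207 (0.185) and Cd209d (0.1675), and without the CX3CR1int replicate 2 for H2-Aa and Xist (0.1125). The mast cell median was -0.25 with no dim filter and -0.71 at the 50th percentile. The cause of these changes was not tested. Of 38 list medians, 20 moved by more than the spread between replicates in some alternative. Where a sample is left out, its lone partner is taken to vary like the other subsets. The number of arrays, 2 a subset, limits the precision throughout.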
